A study of Homo sapiens with 28 samples.

Results

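Matrix metalloproteinases, the zinc enzymes that cut extracellular matrix, and the TIMPs, their tissue inhibitors, were followed in 28 tumours grown from 2 human renal carcinoma lines in mice. The 9 genes were named one by one (MMP1, MMP2, MMP7, MMP14, MMP15, MMP24, TIMP1, TIMP2 and TIMP3) and are 9 of the 19775 genes with a probe set of their own on the array, which reads them with 21 probe sets. Resistant 786-O tumours of a sorafenib arm (5) were set against untreated 786-O tumours of that arm (5), and resistant 786-O tumours of a sunitinib arm (4) against its untreated tumours (5). Resistant A498 tumours of a second sorafenib arm (5) were set against untreated A498 tumours (4), and untreated A498 tumours against untreated 786-O tumours. Both lines are established and lack functional VHL, the factor that marks hypoxia-inducible factors for degradation, and this is common to all 6 groups. The host was always a female athymic nude/beige mouse, 6 to 8 weeks old at injection of the cells into the flank. Sorafenib (80 mg/kg), an inhibitor of RAF kinases and of the receptors for VEGF and PDGF, or sunitinib (53.6 mg/kg), an inhibitor of several receptor tyrosine kinases that include both of these, was given by gavage. Dosing ran on 6 days a week once tumours measured 12 mm.

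A limit diameter of 20 mm is recorded for every group. The size of each tumour at removal and its time on drug are not given, so growth and treatment cannot be told apart. Whether tumours shared a mouse is not stated. Each p-value therefore rests on the spread among tumours of the same group, pooled over all groups fitted, which may be partly technical. A tumour mixes human carcinoma cells with mouse host cells, whose RNA the human probes may bind in part, and in such a mixture fewer cells of a type and less RNA per cell cannot be told apart. Of 11 renal carcinoma markers listed, 9 were on the array, and all 9, PAX8, VIM and KRT18 among them, had a mean above the filter limit in every group.

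Matrix metalloproteinases are made as inactive proenzymes and begin to cut once their propeptide is removed, by other proteases outside the cell or by furin-like convertases on the way to the surface. MMP1, MMP2 and MMP7 are secreted, whereas MMP14, MMP15 and MMP24 are anchored in the plasma membrane, where MMP14 together with TIMP2 binds and activates the proenzyme of MMP2. TIMPs bind the active site and block it, so that proteolysis around a cell depends on both sides of the family, which in renal carcinoma is expressed by tumour cells and by stroma.

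The promoters of MMP7 and TIMP1 are shown because these 2 members had a single probe set each, lay above the filter limit on 28 of 28 arrays and had mean differences of opposite sign in all 3 arms. The sequences run from 250 bases before to 50 bases after the gene start in RefSeq's annotation of GRCh38.p14, where 6 of the 9 members had an entry (MMP7, MMP14, MMP15, MMP24, TIMP1 and TIMP3). MMP7 lies on the minus strand at chr11:102530698-102530997, and TIMP1 on the plus strand at chrX:47582186-47582485. Capitals mark matches to TGANTCA, the core that AP-1 factors bind, and to TATAAA, the TATA box, each searched on both strands.
MMP7: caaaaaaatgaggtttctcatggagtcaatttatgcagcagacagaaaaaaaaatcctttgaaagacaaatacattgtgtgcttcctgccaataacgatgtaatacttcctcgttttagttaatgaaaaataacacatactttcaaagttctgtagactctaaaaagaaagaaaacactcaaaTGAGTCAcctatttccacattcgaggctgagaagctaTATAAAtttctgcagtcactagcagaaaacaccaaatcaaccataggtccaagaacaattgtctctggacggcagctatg
TIMP1: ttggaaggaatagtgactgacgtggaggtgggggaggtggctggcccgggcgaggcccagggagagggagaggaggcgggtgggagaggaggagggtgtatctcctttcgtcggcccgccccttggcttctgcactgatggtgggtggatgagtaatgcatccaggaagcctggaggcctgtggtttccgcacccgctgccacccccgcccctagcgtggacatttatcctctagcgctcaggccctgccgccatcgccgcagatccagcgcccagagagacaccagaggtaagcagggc

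The MMP7 promoter held 1 match to each motif, at positions -67 to -61 for TGANTCA and -30 to -25 for TATAAA relative to the gene start, without overlap. No match to either was found in the windows of the other 5 members. Among all 35116 RefSeq promoters of this length, 7.71% held TGANTCA and 11.5% held TATAAA. The GC content was 35.7% in the MMP7 window, against 55.0% for MMP14, 65.0% for TIMP1, 72.7% for TIMP3, 75.3% for MMP15 and 80.0% for MMP24.

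Levels are given as deposited linear signals, and differences as log2(signal + 16), a scale that makes changes of dim genes look smaller than they are. A gene was tested when its brightest probe set exceeded a signal of 89.2, the median of all values, on at least 4 arrays. In all 13820 genes passed, among them 8 of the 9 members, and MMP15 did not. Tests are limma's with Benjamini-Hochberg adjustment over all 13820 genes. The ± beside a difference is its standard error, and rose or fell means an adjusted p under 0.05. Fewer genes passed when only the arrays of a comparison were fitted. With sorafenib in 786-O 1673 passed in place of 2092, with sunitinib 259 in place of 698 and in A498 185 in place of 875. The split of all genes depended on the scaling: with sorafenib in 786-O 825 were higher and 1267 lower, but 1273 and 734 when every array was centred on its median. Centring likewise gave 425 and 261 in place of 306 and 392 with sunitinib, and 217 and 615 in place of 405 and 470 in A498. It moved the median of all genes by over 0.1 on the log2 scale for the difference between the lines under sorafenib only, to -0.078 against 0.069 as deposited.

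In resistant 786-O tumours of the sorafenib arm MMP1, MMP2, MMP14 and TIMP1 rose and MMP24 fell, whereas MMP7, TIMP2 and TIMP3 did not pass the test. Thus 4 of 8 tested members were higher and 1 was lower, where 15.1% of all tested genes passed, 5.97% higher and 9.17% lower. The same 5 members had no overlap between resistant and untreated tumours, which held for 12.5% of all tested genes. The median difference of the 8 was 0.13, against -0.049 over all genes.

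MMP1, the interstitial collagenase that cuts the triple helix of fibrillar collagen, had signals of 611, 2438, 1109.6, 994 and 1665 in resistant tumours, against 149, 85.3, 43.3, 41.6 and 139 in untreated tumours. The lowest resistant tumour was above the highest untreated one, and only 2 of the 5 untreated tumours exceeded the filter limit. The means were 1364 ± 709 in resistant and 91.7 ± 51.1 in untreated tumours (SD, n = 5 each). The difference was 3.67 ± 0.49 (adjusted p = 9.41e-06). MMP2, or gelatinase A, which digests denatured collagen and basement membrane, had signals of 9039, 9888, 7542, 7341 and 7158 in resistant tumours, against 7125, 5519.8, 4102, 6189.9 and 6187 in untreated tumours. The lowest resistant and the highest untreated value of MMP2 lay close together without crossing, and the difference was 0.50 ± 0.15 (adjusted p = 0.0252). This call was lost without untreated replicate 3 (0.38, adjusted p = 0.0836), resistant replicate 1 (adjusted p = 0.0576) or resistant replicate 2 (adjusted p = 0.072), and also when only the arrays of the arm were fitted (adjusted p = 0.0609). MMP7, or matrilysin, a small protease of epithelial cells that cuts many matrix and cell surface proteins, had signals of 5676, 4384, 9449.8, 7839 and 7205 in resistant tumours, against 14558, 11203, 12964, 8804 and 8528 in untreated tumours. Resistant replicate 3 alone reached into the untreated range. The difference was -0.71 ± 0.26 (adjusted p = 0.0679), and without that tumour -0.84 (adjusted p = 0.0415). It also passed with array weights (-0.80, adjusted p = 0.0318) and with the filter at the 75th percentile (adjusted p = 0.0446).

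Of the membrane-anchored enzymes, MMP14, which activates MMP2 at the cell surface and itself cuts collagen, had signals of 1664, 1952, 1591, 1643 and 1534 in resistant tumours, against 1281, 1082, 1339.5, 1096 and 1144 in untreated tumours. The groups did not overlap, and the difference was 0.49 ± 0.11 (adjusted p = 0.00282), although 1 of the gene's 4 probe sets moved the other way. MMP24, a membrane-type enzyme best known from the nervous system, had signals of 31.1, 21.3, 35.3, 19.3 and 16.6 in resistant tumours, against 162, 188, 203, 265 and 326 in untreated tumours. All 5 untreated tumours were above the filter limit and all 5 resistant tumours below it. MMP24 averaged 24.7 ± 8.03 in resistant and 229 ± 66.2 in untreated tumours (SD, n = 5 each). The difference was -2.57 ± 0.42 (adjusted p = 0.000129). Its second probe set, above the limit on 3 of 28 arrays and not tested, averaged 64.7 ± 8.28 in resistant and 70.5 ± 28.4 in untreated tumours. The mean of both gave -1.31 (adjusted p = 0.000564), and a pseudocount of 64 gave -1.70. MMP15, a membrane-type relative of MMP14, had signals from 11.1 to 23.2 in resistant and from 6.18 to 27.5 in untreated tumours, all below the filter limit, and was not tested.

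Among the inhibitors, TIMP1, a secreted glycoprotein that blocks most soluble metalloproteinases, had signals of 22324, 17773, 18162, 18619 and 17961 in resistant tumours, against 12612, 11336, 12878, 10328 and 9949 in untreated tumours. Every resistant tumour lay above every untreated one, and resistant replicate 1 stood above the other 4. The means were 18968 ± 1902 in resistant and 11421 ± 1314 in untreated tumours (SD, n = 5 each). The difference was 0.73 ± 0.083 (adjusted p = 1.26e-06). TIMP2, which both inhibits metalloproteinases and links the MMP2 proenzyme to MMP14, had signals of 1363, 1884, 1693, 777 and 1418 in resistant tumours, against 1794, 1994, 1736, 1749 and 2575 in untreated tumours. The difference was -0.50 ± 0.27 (adjusted p = 0.232). TIMP3, which is held in the matrix and also inhibits ADAM proteases, had signals of 122, 145, 204, 194 and 149.7 in resistant tumours, against 176, 192, 202, 255 and 147 in untreated tumours. The difference was -0.24 ± 0.22 (adjusted p = 0.522). For both genes the groups overlapped, so that of the 3 inhibitors TIMP1 alone passed the test in this arm.

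**Figure D1:**
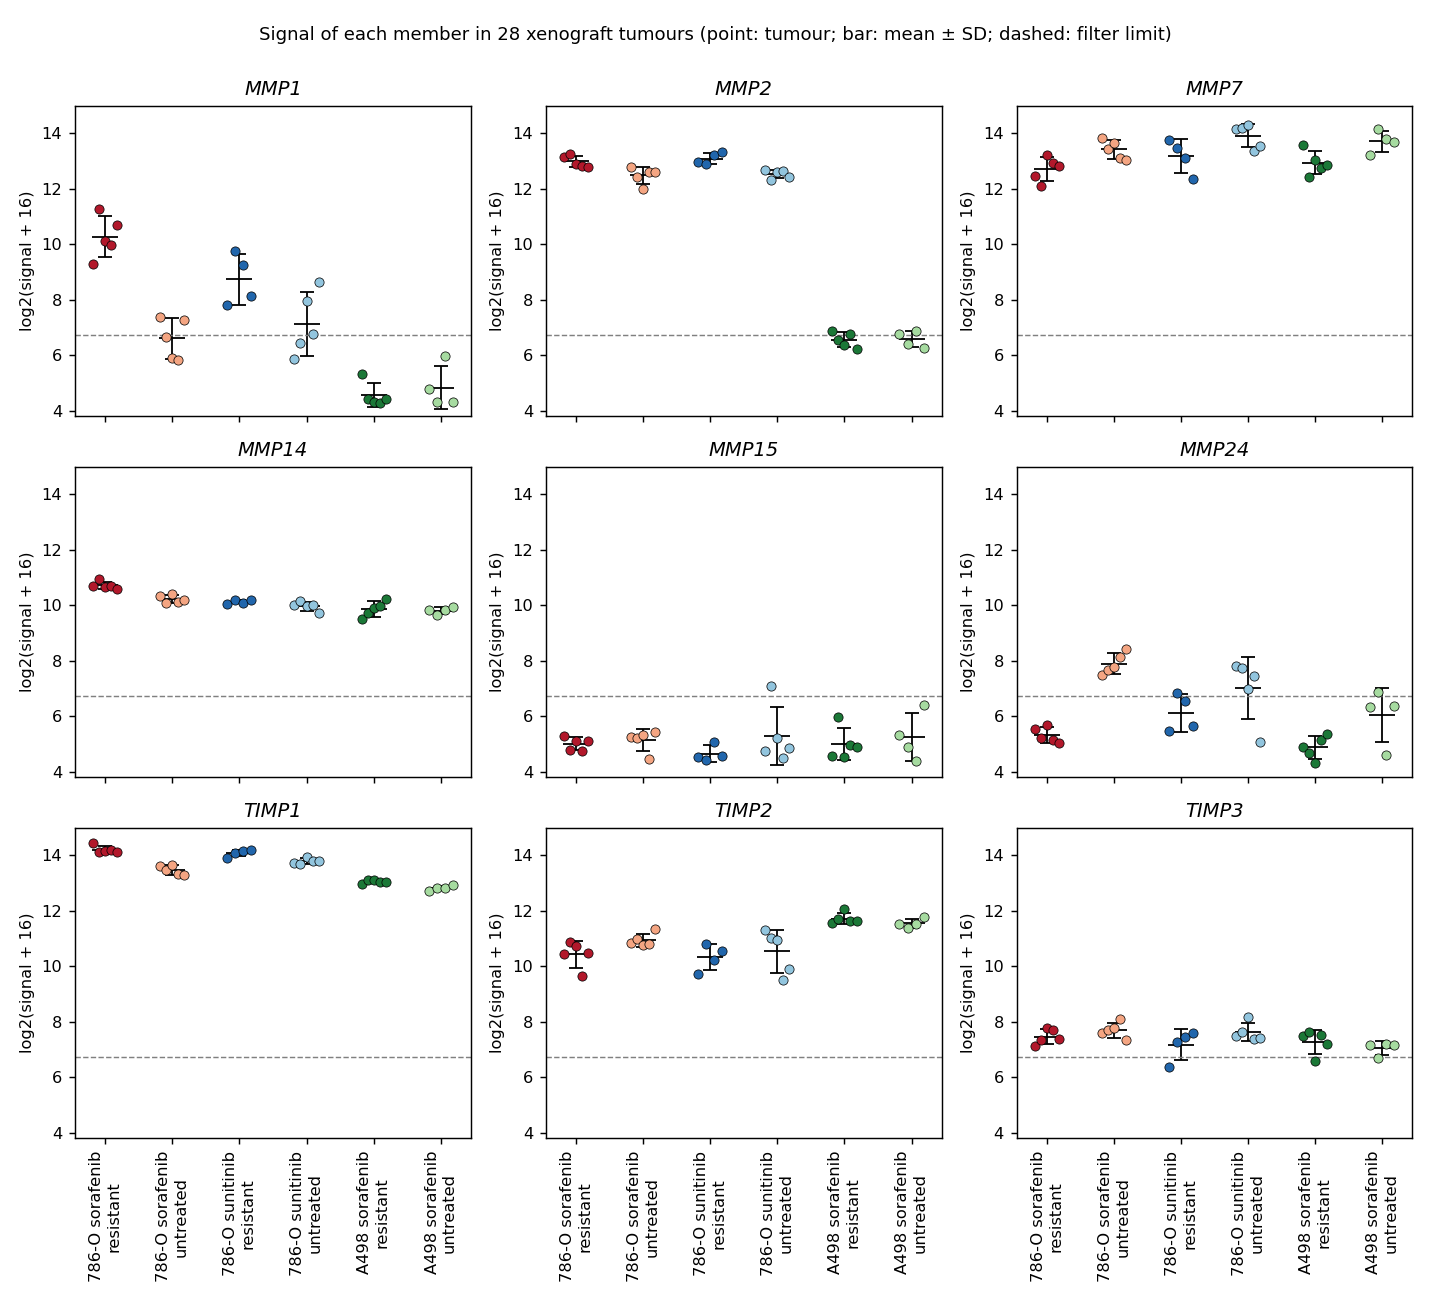
Log2(signal + 16) of the 9 genes in every tumour, one panel per gene, with resistant tumours left of their untreated tumours in each arm; bars give the mean ± SD and the dashed line the filter limit. MMP1 stands highest in the 5 resistant 786-O tumours of the sorafenib arm (611 to 2438 in signal), MMP2 is high in all 19 786-O tumours and around the limit in the 9 A498 tumours, and MMP15 exceeds the limit in 1 tumour.

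Some markers of other cells also differed in this arm. The summed signal of 12 fibroblast and pericyte markers ranged from 3259.5 to 5434 in resistant and from 7974 to 11310.0 in untreated tumours. Of the 10 tested, 5 fell (COL3A1, COL1A2, COL1A1, RGS5 and POSTN) and 0 rose, and LUM and PDGFRB were below the filter. The 10 endothelial markers summed to 247 to 543 in resistant and 448 to 617 in untreated tumours. Of these 2 passed the filter, KDR, CDH5 and VWF did not, and TIE1 fell (-1.70 ± 0.40, adjusted p = 0.00428). The 9 macrophage markers with a probe set of 1 gene symbol summed to 453 to 681 in resistant and 587 to 883 in untreated tumours. Of these 5 passed the filter, CD14, CD163 and MRC1 did not, and AIF1 fell (-2.33 ± 0.67, adjusted p = 0.0191). The other 4 did not pass, and the median difference of the 5 was 0.0011. The 6 skeletal muscle markers with such a probe set summed to 299 to 519 in resistant and 424 to 1480.2 in untreated tumours. Of these DES fell (-0.84 ± 0.27, adjusted p = 0.0377), a call lost with centred arrays and with quantile normalisation. Of 2 tested neutrophil and 2 tested skin or fat markers 0 passed. Of the 9 renal carcinoma markers EPAS1 (0.91 ± 0.11, adjusted p = 3.14e-06) and KRT18 (0.42 ± 0.12, adjusted p = 0.0222) rose. PAX2 (-0.86 ± 0.29, adjusted p = 0.0419) and CDH6 (-0.68 ± 0.13, adjusted p = 0.000842) fell. EPAS1 also rose and CDH6 also fell with sunitinib, and KRT8 fell in A498. MMP1, MMP2, MMP14 and TIMP1 thus rose where the fibroblast marker signal was lower, and MMP24 fell where it was lower; the part of these markers in the results was not tested. The difference between 3-prime and 5-prime signals of the ACTB control, a sign of RNA quality, was highest in untreated replicate 5 (1.03) and resistant replicate 4 (0.674), and without both arrays the same 5 members passed.

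In resistant 786-O tumours of the sunitinib arm MMP2 rose, and none of the other 7 tested members passed limma's test. That is 1 of 8 higher and 0 lower, where 5.05% of all tested genes passed, 2.21% higher and 2.84% lower. Of the other 7, 3 had an unadjusted p under 0.05, which held for 2586 of all 13820 tested genes. MMP2 alone had no overlap between the groups, which held for 8.46% of all tested genes. The median difference of the members was -0.024, against -0.013 over all genes. MMP2 had signals of 7928, 7546, 9452 and 10244 in resistant tumours, against 6477, 5107, 6230.1, 6416 and 5501 in untreated tumours. Every resistant tumour was above every untreated one, with a difference of 0.56 ± 0.16 (adjusted p = 0.0427). The call was lost without any one of the 5 untreated tumours or of resistant replicates 3 and 4 (adjusted p = 0.0544 to 0.135), and under 7 other settings, among them no filter on dim genes (adjusted p = 0.0713).

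MMP1 had signals of 207, 853, 597 and 268 in sunitinib-resistant tumours, against 41.8, 71.7, 234, 92.3 and 387 in untreated tumours. The 2 highest untreated tumours reached into the resistant range, and the difference of 1.60 ± 0.52 missed the threshold (adjusted p = 0.0752). It passed without untreated replicate 5 (1.98, adjusted p = 0.0227) or without resistant replicate 1 (1.92, adjusted p = 0.0455). TIMP1 had signals of 15414, 17391, 18102 and 18701 in resistant tumours, against 13608, 13300.0, 15765, 14100.0 and 14290.0 in untreated tumours. Only untreated replicate 3 exceeded the lowest resistant value. Its difference was 0.29 ± 0.088 (adjusted p = 0.0555), and it passed without that tumour (adjusted p = 0.0457), without resistant replicate 1 (adjusted p = 0.031) or with centred arrays (adjusted p = 0.0395). MMP7 had signals of 13745, 11476, 8889 and 5238 in resistant tumours, against 18387, 18815, 20055, 10614 and 12012 in untreated tumours. The groups overlapped, with a difference of -0.74 ± 0.28 (adjusted p = 0.132).

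MMP24 had signals of 27.8, 99.2, 77.7 and 34.2 in sunitinib-resistant tumours, against 208, 199, 110.4, 158 and 17.95 in untreated tumours. Untreated replicate 5 was the lowest of all 9 values. With it the difference was -0.89 ± 0.45 (adjusted p = 0.292). Without it the difference was -1.37 (adjusted p = 0.0319). MMP14 averaged 1103 ± 47.3 in resistant (n = 4) and 989.6 ± 105 in untreated tumours (SD, n = 5), a difference of 0.16 ± 0.12 (adjusted p = 0.495). TIMP2 ranged from 836 to 1788 in resistant and from 719 to 2504 in untreated tumours (-0.21 ± 0.29, adjusted p = 0.761). TIMP3 ranged from 66.01 to 177 in resistant and from 151 to 275 in untreated tumours (-0.45 ± 0.23, adjusted p = 0.311). MMP14, TIMP2 and TIMP3 overlapped between the groups, and MMP15 exceeded the limit in 1 untreated tumour. The fibroblast and pericyte markers summed to 4022 to 8399 in resistant and 4724 to 8800.3 in untreated tumours, overlapping, and of the 10 tested 1 fell (RGS5, -0.99 ± 0.24, adjusted p = 0.0177) and 0 rose. Their part in the results was not tested.

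In resistant A498 tumours 0 of the 8 tested members passed limma's test, where 6.33% of all tested genes passed, 2.93% higher and 3.4% lower. Of the 8, 3 (MMP7, MMP24 and TIMP1) had an unadjusted p under 0.05, which held for 2893 of all 13820 tested genes. The median difference of the 8 was 0.017, against 0.027 over all genes. TIMP1 alone had no overlap between the groups, which held for 9.13% of all tested genes. Its signals were 8053, 8832, 8860.2, 8385 and 8345 in resistant tumours, against 6775, 7145, 7282 and 7729 in untreated tumours, a difference of 0.23 ± 0.088 (adjusted p = 0.122). MMP7 had signals of 12290.0, 5531, 8485, 6955 and 7524 in resistant tumours, against 9580.4, 18196, 14348 and 13202 in untreated tumours. Resistant replicate 1 alone reached into the untreated range, and the difference of -0.78 ± 0.28 (adjusted p = 0.0984) became -0.94 (adjusted p = 0.0429) without it.

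MMP24 had signals of 13.6, 9.38, 3.93, 19.4 and 25.4 in resistant A498 tumours, against 64.5, 101, 8.56 and 66.95 in untreated A498 tumours, of which 1 exceeded the filter limit. The difference was -1.17 ± 0.45 (adjusted p = 0.123), and without untreated replicate 3, the one low untreated tumour, -1.65 (adjusted p = 0.0234). MMP1 was below the limit on all 9 A498 arrays, with signals from 3.26 to 23.9 in resistant and from 3.71 to 46.3 in untreated tumours (-0.28 ± 0.52, adjusted p = 0.818). MMP2 ranged from 58.8 to 102 in resistant and from 61.4 to 101 in untreated tumours (-0.023 ± 0.16, adjusted p = 0.96). Both genes were thus dim in this line with or without sorafenib. MMP14 differed by 0.058 ± 0.12 (adjusted p = 0.832), TIMP2 by 0.17 ± 0.29 (adjusted p = 0.796) and TIMP3 by 0.23 ± 0.23 (adjusted p = 0.624), all with overlap, and MMP15 stayed below the limit in every tumour. The fibroblast and pericyte markers summed to 10737 to 24703 in resistant and 7121 to 16407 in untreated tumours, and 0 of the 10 tested passed; their part in the results was not tested.

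MMP7 and MMP24 had a lower mean in resistant than in untreated tumours in each of the 3 arms, and TIMP1 and MMP14 a higher one. For MMP14 the differences on the brightest probe set were 0.49, 0.16 and 0.058, and not all of its probe sets had this sign. How many of all tested genes kept their sign over the 3 arms was not counted. The MMP7 differences of -0.71, -0.74 and -0.78 were close in size. None of them passed, although both sorafenib values did with array weights. MMP1 and MMP2 had higher means in resistant tumours of both 786-O arms.

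**Figure D2:**
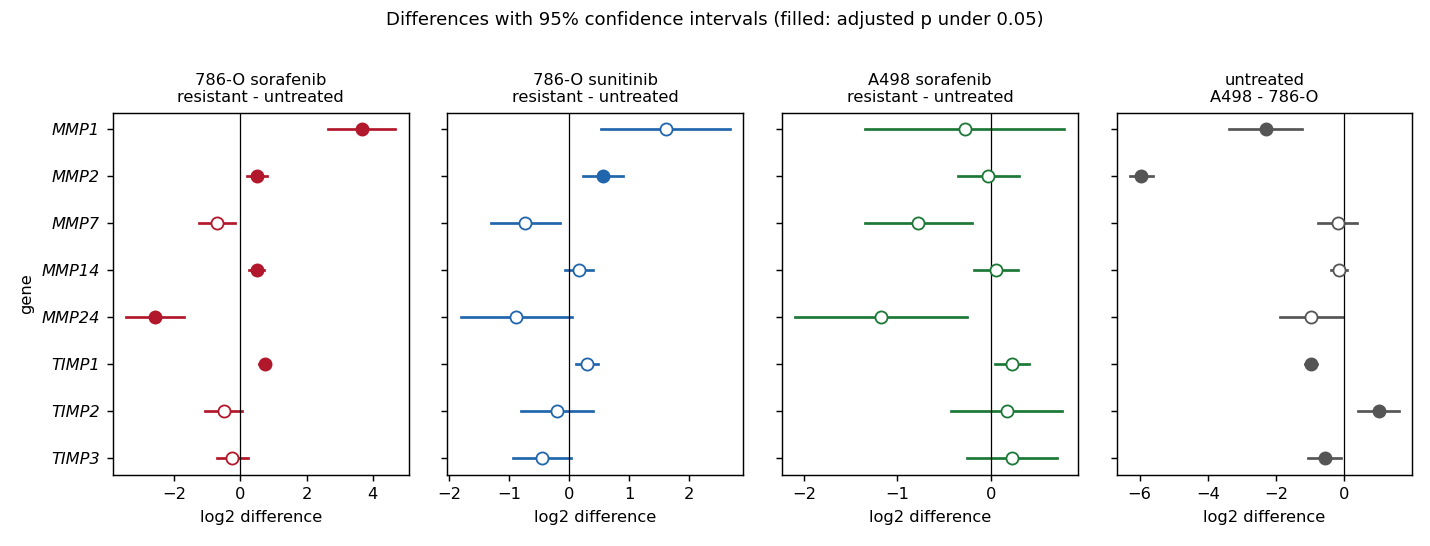
Log2 differences of the 8 tested genes with 95% confidence intervals, resistant minus untreated in the 3 arms and untreated A498 minus untreated 786-O in the last panel, each panel with its own axis range; filled points passed at an adjusted p under 0.05. The points of MMP7 and MMP24 lie left of 0 and those of TIMP1 and MMP14 right of 0 in all 3 arms. MMP2 in the comparison of the lines lies at -5.95.

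The untreated lines differed in 5 of the 8 tested members, 1 higher and 4 lower in A498. A pass was common here, at 57.9% of all tested genes, 27.3% higher and 30.6% lower. TIMP2 was higher and MMP1, MMP2, TIMP1 and TIMP3 were lower in A498. All of these but MMP1 had no overlap, 4 of 8 where 47.4% of all tested genes had none. The 4 untreated A498 tumours were compared with the 5 untreated 786-O tumours of the sunitinib arm, because the titles of these groups begin with the same code, unlike those of the sorafenib arm of 786-O. What the code stands for is not stated. Both groups also serve in the comparisons with resistant tumours. MMP2 averaged 81.3 ± 18.8 in untreated A498 (SD, n = 4) and 5946 ± 609.6 in untreated 786-O tumours (SD, n = 5). The difference was -5.95 ± 0.16 (adjusted p = 1.1e-19), and the mean of the gene's probe sets, most of them dim, gave -1.96. Of the untreated A498 tumours 2 of 4 exceeded the filter limit for MMP2, against 5 of 5 in 786-O, so that no fold is given.

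MMP1 averaged 16.3 ± 20.3 in untreated A498 and 165 ± 144 in untreated 786-O tumours, a difference of -2.30 ± 0.52 (adjusted p = 0.000477). The highest A498 tumour, at 46.3, just passed the lowest 786-O tumour, at 41.8, and the size depended on the pseudocount (-3.50 with 1 and -1.33 with 64). TIMP1 averaged 7233 ± 394 in A498 and 14213 ± 952 in 786-O tumours (-0.97 ± 0.088, adjusted p = 8.19e-10). TIMP2 averaged 2986 ± 365 in A498 and 1638 ± 769 in 786-O tumours (1.01 ± 0.29, adjusted p = 0.00433). It missed the threshold against the untreated 786-O tumours of the sorafenib arm (0.61, adjusted p = 0.073). A498 tumours thus had the lower signal of one soluble inhibitor and the higher signal of the other. TIMP3 averaged 118 ± 20.2 in A498 and 186 ± 51.8 in 786-O tumours (-0.57 ± 0.23, adjusted p = 0.0397). This call was lost without A498 replicate 2 or 4 or 786-O replicate 2 or 3 (adjusted p = 0.0523 to 0.136) and with no filter (adjusted p = 0.0582). It was also lost with the difference between 3-prime and 5-prime GAPDH signals as a covariate (-0.47, adjusted p = 0.113). MMP7 (-0.20 ± 0.28, adjusted p = 0.571), MMP14 (-0.16 ± 0.12, adjusted p = 0.261) and MMP24 (-0.96 ± 0.45, adjusted p = 0.0687) did not pass. Against the untreated 786-O tumours of the sorafenib arm, MMP14 (-0.42, adjusted p = 0.00305) and MMP24 (-1.85, adjusted p = 0.000941) were lower in A498, and MMP7 changed sign (0.30). MMP24 also passed without 786-O replicate 5 (-1.44, adjusted p = 0.00167), without A498 replicate 2 (-1.24, adjusted p = 0.0307) or with centred arrays (-1.03, adjusted p = 0.0457).

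Markers of other cells differed between the untreated lines as well. The fibroblast and pericyte markers summed to 7121 to 16407 in untreated A498 and 4724 to 8800.3 in untreated 786-O tumours. Of the 10 tested COL1A1 was higher in A498 (4.99 ± 0.36, adjusted p = 1.43e-11), with a mean of 13.17 against 8.18 on the log2 scale. Lower in A498 were COL3A1 (-2.30 ± 0.32, adjusted p = 8.92e-07), FAP (-1.76 ± 0.37, adjusted p = 0.00019), COL1A2 (-1.72 ± 0.29, adjusted p = 1.37e-05) and RGS5 (-0.97 ± 0.24, adjusted p = 0.00132). The median difference of the 10 was -0.63, so the higher sum rests on the bright COL1A1 and was not shared by the list. The macrophage markers summed to 710.3 to 832 in A498 and 380.3 to 752 in 786-O tumours, and of the 5 tested ITGAM (2.54 ± 0.27, adjusted p = 1.21e-08) and FCER1G (1.01 ± 0.31, adjusted p = 0.00788) were higher in A498 and CSF1R (-0.77 ± 0.31, adjusted p = 0.0374) was lower. The neutrophil markers summed to 828 to 1298 in A498 and 141 to 283 in 786-O tumours. Higher in A498 were also S100A9 of 2 tested neutrophil markers (4.46 ± 0.43, adjusted p = 2.52e-09) and DES of 4 tested muscle markers (2.18 ± 0.29, adjusted p = 4.58e-07), while 0 of 2 endothelial and 0 of 2 skin or fat markers passed. Of the 9 renal carcinoma markers 4 were higher and 3 lower in A498, where 57.9% of all tested genes passed. The part of these markers in the differences of the members was not tested.

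The sorafenib responses of the lines were compared as A498 minus 786-O. The titles of these arms begin with different codes, so that line and code cannot be told apart here. The difference passed for MMP1 (-3.95 ± 0.71, adjusted p = 0.00199) and TIMP1 (-0.50 ± 0.12, adjusted p = 0.0169), 0 of 8 higher and 2 lower where 5.18% of all tested genes passed, 3.02% higher and 2.16% lower. For MMP1 the A498 side lies wholly below the filter limit. Of the 10 tested fibroblast and pericyte markers 4 (COL3A1, COL1A2, COL1A1 and RGS5, the last with 1.98 ± 0.33, adjusted p = 0.00112) were higher in this comparison and 0 lower. AIF1 (3.34 ± 0.97, adjusted p = 0.0447) and TIE1 (2.45 ± 0.58, adjusted p = 0.0147) were higher too, and the part of these markers in the results was not tested. The difference for MMP14 (-0.43 ± 0.16, adjusted p = 0.115) passed with centred arrays (-0.58, adjusted p = 0.0396) or without resistant A498 replicate 5 (-0.53, adjusted p = 0.0405). MMP2 (-0.53 ± 0.22, adjusted p = 0.172), MMP24 (1.40 ± 0.62, adjusted p = 0.193), TIMP2 (0.67 ± 0.40, adjusted p = 0.351) and TIMP3 (0.47 ± 0.32, adjusted p = 0.438) did not pass. For MMP7 the difference was -0.061 ± 0.38, with a 95% interval of -0.85 to 0.73 (adjusted p = 0.955).

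Between the drugs in 786-O, sorafenib minus sunitinib, 0 of the 8 members passed limma's test of the difference, where 0.948% of all tested genes passed. Of the 8, 4 had an unadjusted p under 0.05, which held for 1989 of all 13820 tested genes. The values were 2.06 ± 0.71 for MMP1 (95% interval 0.59 to 3.53, adjusted p = 0.168) and -1.68 ± 0.62 for MMP24 (interval -2.95 to -0.41, adjusted p = 0.197). TIMP1 differed by 0.44 ± 0.12 (interval 0.19 to 0.69, adjusted p = 0.0792) and MMP14 by 0.33 ± 0.16 (interval 0.0038 to 0.66, adjusted p = 0.34). The difference was -0.055 ± 0.22 for MMP2 (interval -0.51 to 0.40, adjusted p = 0.943), while MMP7 differed by 0.025 ± 0.38 (interval -0.77 to 0.81, adjusted p = 0.987). The doses of the drugs differed, and so did the codes that begin the titles of these arms, so that drug and code cannot be told apart.

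The untreated tumours of these arms, sorafenib arm minus sunitinib arm, differed in 0 of 8 members by limma, where 0.275% of all tested genes passed. Of the 8, 3 had an unadjusted p under 0.05, which held for 1820 of all 13820 tested genes. TIMP1 was the one member without overlap there, which held for 2.76% of all tested genes, with 9949 to 12878 in the sorafenib arm and 13300.0 to 15765 in the sunitinib arm (-0.32 ± 0.083, adjusted p = 0.0885). The resistant tumours of the same arms, at 17773 to 22324 with sorafenib and 15414 to 18701 with sunitinib, overlapped.

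The probe sets of a gene did not always move together. For MMP14 in 786-O with sorafenib, the brightest probe set (0.49 ± 0.11, adjusted p = 0.00429) and both probe sets with the suffix s (0.74 ± 0.18, adjusted p = 0.00649, and 0.55 ± 0.19, adjusted p = 0.0642, over 26950 probe sets) had higher means in resistant tumours. The first 2 of these 3 passed. The fourth, whose suffix x marks probes that may bind other transcripts, was lower (-0.74 ± 0.17, adjusted p = 0.00415), with signals from 790.3 to 1248 in resistant and from 1466 to 2037 in untreated tumours. It had a lower mean in sunitinib-resistant tumours too (-0.62 ± 0.18, adjusted p = 0.0507), and not in A498 (0.059 ± 0.18, adjusted p = 0.909). The mean of all 4 gave 0.26 in 786-O with sorafenib (adjusted p = 0.167). The 3 probe sets of TIMP2 had the same sign within each arm, with -0.50 to -0.45 in 786-O with sorafenib, -0.28 to -0.21 with sunitinib and 0.17 to 0.49 in A498. On one of them the sorafenib responses of the lines differed (0.94 ± 0.24, adjusted p = 0.027), while the untreated lines did not pass (0.14 ± 0.17, adjusted p = 0.508). Of the probe sets of MMP2, MMP24 and TIMP3 (3, 2 and 4), 2, 1 and 1 passed the filter. The second MMP2 probe set to pass had signals of at most 139 and differed by 0.0080 in 786-O with sorafenib and by -0.21 with sunitinib, and the mean of the MMP2 probe sets gave 0.21 with sorafenib (adjusted p = 0.245).

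**Figure D3:**
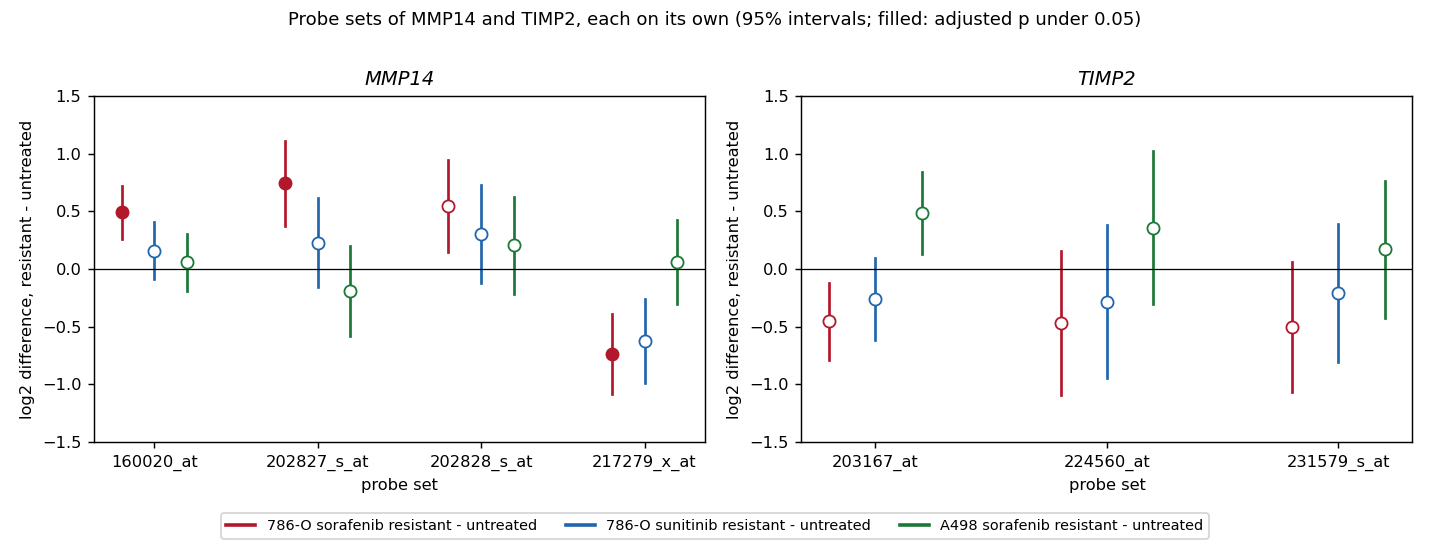
Log2 difference, resistant minus untreated, of each probe set of MMP14 and TIMP2 with its 95% confidence interval; colours give the 3 arms and filled points passed at an adjusted p under 0.05 over 26950 probe sets. In 786-O with sorafenib 3 MMP14 probe sets lie above 0 and the one with the suffix x below it, while the 3 TIMP2 probe sets lie on the same side of 0 within each arm.

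In order of mean signal, MMP1 was highest in sorafenib-resistant 786-O tumours (1364), then came sunitinib-resistant 786-O (481), the untreated 786-O tumours of the sunitinib (165) and sorafenib arms (91.7), untreated A498 (16.3) and resistant A498 tumours (8.51). Neighbours overlapped at every step. MMP2 had steps without overlap between resistant 786-O (8792 with sunitinib and 8194 with sorafenib), untreated 786-O (5946 and 5825 in the same arms) and A498 tumours (81.3 untreated and 79.8 resistant). Within each of these pairs the groups overlapped. TIMP1 overlapped at the top, from sorafenib-resistant (18968) to sunitinib-resistant (17402) and to untreated 786-O tumours of the sunitinib arm (14213). Below these came, in steps without overlap, untreated 786-O of the sorafenib arm (11421), resistant A498 (8495) and untreated A498 tumours (7233). TIMP2 ran the other way between the lines, with 3373 in resistant and 2986 in untreated A498 tumours above all 4 groups of 786-O tumours, which lay between 1321 and 1969.7 with overlap. MMP14 set sorafenib-resistant 786-O tumours (1677) apart from the other 5 groups, whose means lay between 885 and 1188 with neighbours overlapping. MMP7 means lay between 6911 in sorafenib-resistant 786-O and 15976 in untreated 786-O tumours of the sunitinib arm. Those of MMP24 lay between 14.3 in resistant A498 and 229 in untreated 786-O tumours of the sorafenib arm, and those of TIMP3 between 118 in untreated A498 and 195 in the same 786-O tumours. All 3 genes overlapped at every step.

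Of 18 further members of the family, 17 had a probe set of 1 gene symbol and 7 passed the filter. In 786-O with sorafenib 1 of the 7 rose and 2 fell, with a median difference of -0.33. Over all tested genes 15.1% passed there (5.97% higher and 9.17% lower), 5.05% with sunitinib, 6.33% in A498 and 57.9% between the untreated lines. Between the lines under sorafenib 5.18% passed, and between the drugs 0.948%. The counts of this list and of those below are to be read beside these shares. MMP10, a stromelysin whose gene neighbours MMP1 in the metalloproteinase cluster of chromosome 11, rose (1.31 ± 0.39, adjusted p = 0.0249), with 170.3 ± 39.6 in resistant and 65.6 ± 31.2 in untreated tumours. MMP25, a membrane-type enzyme of leukocytes (-1.17 ± 0.36, adjusted p = 0.027), and MMP11, a stromelysin activated inside the cell (-1.003 ± 0.29, adjusted p = 0.0196), fell. The rise was lost with a pseudocount of 1, without the 2 arrays of highest ACTB difference or without untreated replicate 3, resistant replicate 4 or resistant replicate 5. With the mean of the probe sets or without those of the suffixes s and x 0 of the list fell, and 1 fell without the ACTB arrays or without any one of untreated replicates 1 to 4 and resistant replicates 1 and 4. With sunitinib and in A498, 0 of the 7 passed limma's test. In untreated A498, MMP16, a membrane-type enzyme, was lower (22.1 ± 7.05, against 515 ± 148 in untreated 786-O tumours; -3.77 ± 0.27, adjusted p = 1.22e-11), as was MMP11 (-0.88 ± 0.31, adjusted p = 0.0162), and MMP19 was higher (1.26 ± 0.39, adjusted p = 0.00751).

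Of 22 genes whose products activate, dock or restrain metalloproteinases, 20 were tested. In 786-O with sorafenib 4 rose and 0 fell, where 5.97% of all tested genes were higher and 9.17% lower. The median difference of the 20 was 0.081. The risers were PLAT, the tissue plasminogen activator (2.03 ± 0.39, adjusted p = 0.000808), PLAUR, the receptor that holds urokinase at the cell surface (1.41 ± 0.14, adjusted p = 3.23e-07), CD44, a hyaluronan receptor that docks metalloproteinases (0.78 ± 0.099, adjusted p = 4.77e-06), and PLAU, urokinase itself (0.58 ± 0.17, adjusted p = 0.0177). The absence of falls depended on the settings. With the mean of the probe sets 4 rose and 2 fell, and with a pseudocount of 1 or without probe sets of the suffixes s and x 4 rose and 1 fell. With sunitinib PLAUR rose (0.80 ± 0.15, adjusted p = 0.00355) and the other 19 did not pass. In that arm 0 passed when only its arrays were fitted, and 0 rose and 1 fell without probe sets of the suffixes s and x. In A498 CD44 rose (0.47 ± 0.10, adjusted p = 0.00774), and TFPI2, a protease inhibitor of the matrix (-0.93 ± 0.18, adjusted p = 0.00319), and PLAU (-0.70 ± 0.17, adjusted p = 0.0168) fell, and 0 of the 20 passed when only the arrays of that arm were fitted. The sorafenib responses of the lines, A498 minus 786-O, differed for PLAU (-1.28 ± 0.24, adjusted p = 0.00267), PLAUR (-1.38 ± 0.21, adjusted p = 0.00044) and TFPI2 (-1.39 ± 0.25, adjusted p = 0.00188). In untreated A498 5 of the 20 were higher and 7 lower, close to the 57.9% of all tested genes that passed, led by PCSK6, a furin-like convertase (5.15 ± 0.33, adjusted p = 1.7e-12), PLAU (-2.72 ± 0.17, adjusted p = 1.46e-12) and SERPINE2, an inhibitor of serine proteases (1.70 ± 0.14, adjusted p = 2.45e-10). Without untreated A498 replicate 3, 6 were higher and 4 lower.

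Of the related ADAM and ADAMTS proteases, some of which TIMP3 inhibits, 2 of 14 tested genes rose and 3 fell in 786-O with sorafenib, led by ADAMTS15 (-1.91 ± 0.32, adjusted p = 0.000131), ADAMTS5 (-1.16 ± 0.37, adjusted p = 0.0338) and ADAM19 (0.71 ± 0.15, adjusted p = 0.00164). The median difference of the 14 was -0.14, and over all tested genes 5.97% were higher and 9.17% lower. Only 1 of the list fell with centred arrays, with no filter or without any one of untreated replicates 1, 2, 4 and 5 and resistant replicate 3. The rises were lost with the mean of the probe sets (0 rose and 3 fell). Without the 2 arrays of highest ACTB difference 1 rose and 1 fell. With sunitinib 0 of the 14 passed limma's test, and in A498 ADAM12 rose (0.79 ± 0.21, adjusted p = 0.0272), a call lost with centred arrays, with only the arrays of that arm or without any one of untreated replicates 1 and 4 and resistant replicates 2 and 3. In untreated A498 2 of the 14 were higher and 6 lower, close to the 57.9% of all tested genes that passed, led by ADAMTS12 (4.07 ± 0.50, adjusted p = 1.37e-07), ADAMTS5 (-3.09 ± 0.39, adjusted p = 2.37e-07) and ADAMTS1 (-2.12 ± 0.24, adjusted p = 3.84e-08).

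Of the matrix proteins that metalloproteinases cut, 16 genes were tested. In 786-O with sorafenib 1 of the 16 rose and 8 fell, where 5.97% of all tested genes were higher and 9.17% lower. The median difference of the 16 was -0.45. The falls were led by THBS1, a matricellular protein (-2.07 ± 0.20, adjusted p = 2.23e-07), and the fibrillar collagen chains COL3A1 (-1.93 ± 0.30, adjusted p = 6.97e-05) and COL1A2 (-1.83 ± 0.27, adjusted p = 3.88e-05). The rise was in LAMB3, a laminin chain (0.71 ± 0.19, adjusted p = 0.0138). With centred arrays 1 rose and 5 fell, as without resistant replicate 4 or without resistant replicate 5, and 2 rose and 5 fell without probe sets of the suffixes s and x. Without the 2 arrays of highest ACTB difference 0 rose and 5 fell. MMP1 thus rose in tumours in which transcripts of fibrillar collagens, its substrates, fell. COL3A1, COL1A2 and COL1A1 are also fibroblast markers, and their part in the result was not tested. With sunitinib 0 of the 16 passed limma's test (3 fell without untreated replicate 5). In A498 COL5A1 rose (1.19 ± 0.34, adjusted p = 0.033), and THBS1 fell (-1.17 ± 0.21, adjusted p = 0.00177). The rise was lost with centred arrays or without any one of untreated replicates 1, 2 and 4 and resistant replicates 3, 4 and 5, and 0 passed with only the arrays of that arm. THBS1 (-1.49 ± 0.29, adjusted p = 0.0128) and COL1A1 (-2.29 ± 0.50, adjusted p = 0.0255) differed between the drugs in 786-O, sorafenib minus sunitinib. Between the sorafenib responses of the lines, A498 minus 786-O, 6 of the 16 were higher and 1 lower, with a median difference of 0.80. They were led by COL3A1 (2.72 ± 0.44, adjusted p = 0.000839), COL1A2 (2.31 ± 0.40, adjusted p = 0.00117) and COL1A1 (2.31 ± 0.50, adjusted p = 0.0086), and 3 were higher and 1 lower without probe sets of the suffixes s and x. In untreated A498 3 were higher and 10 lower, where 57.9% of all tested genes passed, 27.3% higher and 30.6% lower. They were led by COL1A1 (4.99 ± 0.36, adjusted p = 1.43e-11), COL5A1 (3.51 ± 0.34, adjusted p = 1.96e-09) and FBN1, fibrillin (-3.12 ± 0.31, adjusted p = 3.23e-09). The COL1A1 signal was 10028 ± 4138 in untreated A498 tumours, where MMP1 and MMP2 were dim, against 292 ± 116 in untreated 786-O tumours. Other collagen chains went the opposite way to COL1A1 and COL5A1. COL3A1 (-2.30 ± 0.32), COL4A1 (-1.84 ± 0.22), COL1A2 (-1.72 ± 0.29), COL18A1, COL4A2 and COL7A1 were lower in untreated A498.

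Transcription factors of the AP-1, ETS and RUNX families, which are known to bind promoters of several metalloproteinases, were tested with 13 genes. In 786-O with sorafenib 8 rose and 0 fell, where 5.97% of all tested genes were higher and 9.17% lower. The median difference of the 13 was 0.72. The rises were led by FOSL1, an AP-1 subunit (1.95 ± 0.20, adjusted p = 3.76e-07), and the ETS factors ETV1 (1.45 ± 0.30, adjusted p = 0.00164) and ETV5 (1.44 ± 0.15, adjusted p = 3.76e-07). The count of rises was 8 under both other scalings, 5 without the 2 arrays of highest ACTB difference, 4 with the mean of each gene's probe sets, and between 4 and 9 over all 24 settings, with 0 falls in each of them. With sunitinib FOSL1 (0.97 ± 0.21, adjusted p = 0.00868) and the ETS factor ELK3 (0.53 ± 0.14, adjusted p = 0.0229) rose, and 0 passed when only the arrays of that arm were fitted or without resistant replicate 3. In A498 5 rose and 0 fell, led by ETV4 (1.74 ± 0.39, adjusted p = 0.0083), ETV1 (1.43 ± 0.32, adjusted p = 0.00851) and ETV5 (1.38 ± 0.16, adjusted p = 1.05e-05), in tumours where MMP1 was below the filter limit, and 3 rose with only the arrays of that arm. In untreated A498 3 were higher and 2 lower (5 and 2 without A498 replicate 1), where 57.9% of all tested genes passed. They were led by FOS (2.68 ± 0.52, adjusted p = 9.57e-05), ETV1 (1.25 ± 0.32, adjusted p = 0.00172) and FOSL1 (-0.92 ± 0.21, adjusted p = 0.000594). Between the drugs in 786-O, sorafenib minus sunitinib, 1 of the 13 was higher and 0 were lower, where 0.948% of all tested genes passed. It was ETV5 (0.955 ± 0.22, adjusted p = 0.0313), and 0 passed with quantile normalisation. Between the sorafenib responses of the lines, A498 minus 786-O, 1 of the 13 was higher and 2 were lower. RUNX2 (-1.07 ± 0.17, adjusted p = 0.000877) and FOSL1 (-1.09 ± 0.29, adjusted p = 0.0275) were lower and ETV4 higher (1.84 ± 0.54, adjusted p = 0.0444), and with centred arrays 0 were higher and 4 lower.

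**Figure D4:**
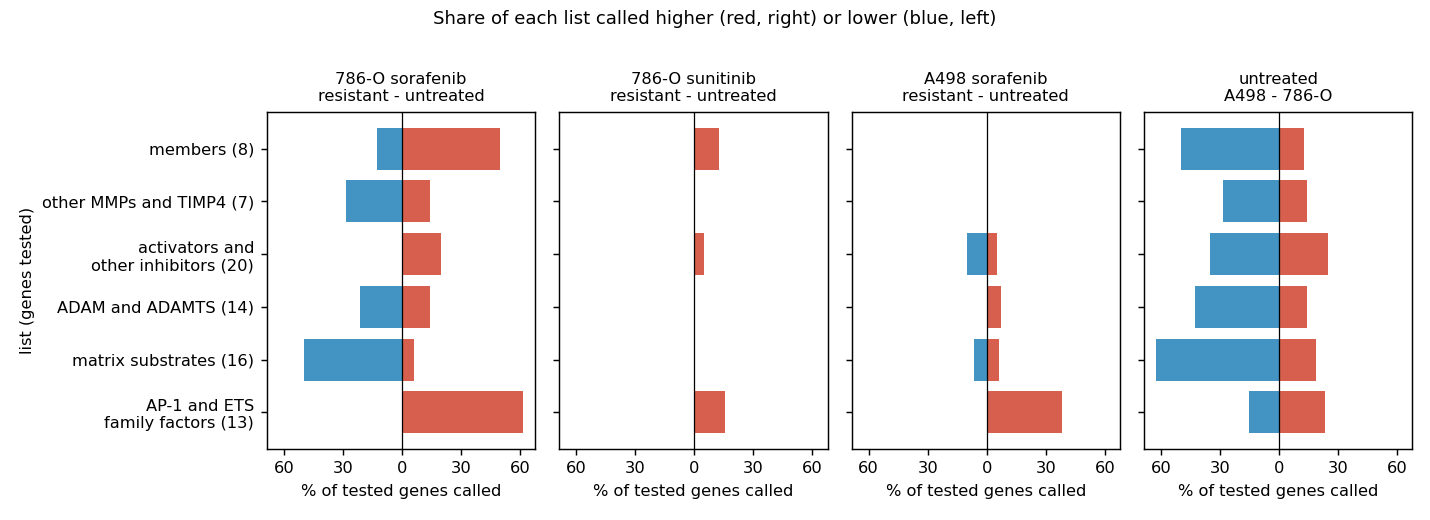
Share of the tested genes of each list that passed, higher in red to the right of 0 and lower in blue to the left, in the 3 resistant minus untreated comparisons and in untreated A498 minus untreated 786-O. In 786-O with sorafenib 8 of 13 transcription factors and 4 of 8 members lie to the right and 8 of 16 matrix substrates to the left, and with sunitinib 1 member is shown. Over all tested genes, which are not drawn, 5.97% were higher and 9.17% lower with sorafenib in 786-O.

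The genes whose log2 values ran most like those of MMP1 over the 19 786-O tumours were SLC2A3, a glucose transporter (Pearson r = 0.94), ARG2, the mitochondrial arginase (r = 0.94), and CARD19 (r = 0.93). Over the 9 A498 tumours, where MMP1 is below the filter limit, the same genes had r = -0.38, -0.13 and -0.10. For MMP24 they were OXCT1, an enzyme of ketone body use (r = 0.89), BRINP1 (r = 0.88) and ALDH7A1, an aldehyde dehydrogenase (r = 0.88), with r = 0.31, -0.61 and 0.49 over the A498 tumours. These values carry no test: the genes were picked from all tested genes for their likeness, and the 19 tumours share resistant and untreated groups between which they differ. With sorafenib in 786-O SLC2A3 differed by 1.70 ± 0.19, ARG2 by 2.34 ± 0.27 and OXCT1 by -1.35 ± 0.28 on the log2 scale.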

How the data were processed

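RNA of 28 snap-frozen xenograft tumours was extracted with Trizol, biotin-labelled and hybridised to 1-colour Affymetrix HG-U133 Plus 2.0 arrays, per the labels. The deposited values are linear probe set intensity values that the authors had scaled to a 2% trimmed mean between 500.059 and 500.069 on every array; RMA and MAS5 are named in the submitters' processing notes, with no role or version. The number of arrays, 4 or 5 per group, limits the precision.

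Groups come from the labels, and replicates were numbered by deposition order, which pairs nothing. The scale was log2(signal + 16). Of 54675 probe sets, 62 controls were left out, 41091 had 1 gene symbol (41037 matched by Entrez ID, 54 by symbol), 1801 several and 11721 no entry; the brightest probe set on average stood for each of 19775 genes. Genes above the median of all values (log2 6.72) on at least 4 arrays were kept (13820). Linear models (limma 3.58.1, R 4.3.3) gave each of the 6 groups its own mean over the 28 arrays, with Benjamini-Hochberg adjustment. The procedure was tested on simulated data. Plots used matplotlib 3.10.9 (Python 3.11.15).

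The members and gene lists were chosen with earlier results of these data known, and gene lists were not tested as sets. Named were the 9 members, up to 3 passing genes per list and comparison by size of difference (genes of short counts beside them were named after their values were seen), and the 3 genes most like MMP1 and MMP24. Lists of markers covered fibroblasts and pericytes, macrophages, endothelium, neutrophils, skeletal muscle, skin and fat, and renal carcinoma. The alternatives changed the pseudocount (1 or 64), the filter (none, or the 75th percentile), the probe sets (their mean, or none with a suffix for shared probes), the scaling (centring or quantile normalisation) and the model (array weights, GAPDH level as a term, robust trended variance, or arrays of the comparison alone). Other untreated 786-O tumours were tried too, and each array was left out in turn. Single probe sets, and a fit without the 2 arrays that had the highest ACTB difference, were added after the data were seen. Promoter sequences are from RefSeq on GRCh38.p14.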

Additional observations from a re-analysis of the deposited data

Results flagged for a closer look

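In 5 of 54 groups of 4 or 5 tumours 1 tumour stood far from the others of its group, and chance gives about 1 in 20 groups. For MMP1, resistant A498 replicate 1 was the highest of its group at 23.9, below the filter limit. For MMP15, untreated 786-O replicate 4 of the sorafenib arm was the lowest of its group at 6.18, and untreated 786-O replicate 2 of the sunitinib arm the highest of its group at 122, its only value above the limit. For TIMP1, resistant 786-O replicate 1 of the sorafenib arm was the highest of its group at 22324, and without it the difference in that arm was 0.67 (adjusted p = 5.11e-06). For TIMP3, untreated A498 replicate 2 was the lowest of its group at 87.6, and without it the lower TIMP3 of untreated A498 no longer passed (-0.45, adjusted p = 0.136). The sorafenib responses of the lines, A498 minus 786-O, differed by limma for MMP1 (-3.95 ± 0.71, adjusted p = 0.00199), with -0.28 ± 0.52 in A498 and 3.67 ± 0.49 in 786-O, and for TIMP1 (-0.50 ± 0.12, adjusted p = 0.0169), with 0.23 ± 0.088 in A498 and 0.73 ± 0.083 in 786-O.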

How the results depend on the processing

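Signal over background limits MMP15, MMP1 and MMP2 in A498 and MMP24 in resistant tumours, and 4 or 5 tumours a group limit the rest. No paired analysis was possible because the labels number no replicates. MMP24 could not be tested with a pseudocount of 1 or the filter at the 75th percentile.

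Without one array at a time, the count of members that passed was 4 to 6 in 786-O with sorafenib, 0 to 3 with sunitinib, 0 to 1 in A498, 4 to 6 between the untreated lines, 0 to 0 between the drugs, 2 to 3 between the lines under sorafenib and 0 to 0 between the untreated 786-O arms. With sorafenib in 786-O 3 members passed, in place of 5, with the mean of the probe sets (MMP2 and MMP14 lost), 4 with only the arrays compared (MMP2 lost) and 6 with array weights (MMP7 gained), and MMP7 also passed with the filter at the 75th percentile. With sunitinib 0, in place of 1, passed with a pseudocount of 1, no filter, the mean of the probe sets, quantile normalisation, array weights or only the arrays compared. The same held with the difference between 3-prime and 5-prime GAPDH signals as a covariate. In that arm 2 passed with a pseudocount of 64 (MMP1 and MMP2) and with centring, a trended robust variance or without the 2 arrays of highest ACTB difference (MMP2 and TIMP1). With the filter at the 75th percentile 3 passed (MMP1, MMP2 and TIMP1). In A498 2 passed with array weights (MMP7 and MMP24), in place of 0, and between the drugs 1 (TIMP1) with the filter at the 75th percentile, in place of 0.

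Signs turned as follows; apart from the probe sets of MMP14 and MMP2 these were differences that had not passed, and the cause was not tested. The MMP14 probe set with the suffix x gave -0.74 with sorafenib and -0.62 with sunitinib in 786-O, -0.12 between the drugs and 0.80 between the lines under sorafenib, and one with the suffix s -0.19 in A498 and 0.15 between the untreated lines. The dim MMP2 probe set gave -0.21 with sunitinib, 0.22 between the drugs and 0.12 between the untreated 786-O arms, where the mean of the MMP2 probe sets gave 0.0052. MMP2 was 0.059 in A498 with array weights, and between the drugs 0.023 with quantile normalisation, 0.017 with array weights and 0.0087 without the 2 ACTB arrays. MMP7 was 0.30 between the untreated lines against the sorafenib arm and 0.050 against both arms, -0.059 with array weights and -0.12 without the 2 ACTB arrays between the drugs, and 0.087 without these arrays between the lines under sorafenib; TIMP2 was 0.0059 between the drugs without them. Leaving out one array, the ranges that crossed 0 were -0.47 to 0.097 for MMP1, -0.13 to 0.071 for MMP2 and -0.035 to 0.15 for MMP14 in A498; -0.18 to 0.023 for MMP2, -0.25 to 0.21 for MMP7 and -0.059 to 0.35 for TIMP3 between the drugs; -0.22 to 0.083 for MMP7 between the lines under sorafenib; and -0.13 to 0.073 for MMP2 and -0.021 to 0.22 for TIMP3 between the untreated 786-O arms. Of all other member values under these alternatives, leaving out one array aside, 700 kept their direction and side of the threshold, 17 lost the call and 21 gained it.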
